A study of Mus musculus with 2 samples.

Results

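The genes described here are those that move chloride, water and sodium across the epithelial membrane: the chloride channel and transporter families, the aquaporin water channels, the epithelial and acid-sensing sodium channels, and the sodium pump with its FXYD regulators. They were chosen by gene name, which gave 76 of the 23537 gene symbols listed. The names were *Cftr* and symbols that start with Clcn, Clca, Aqp, Scnn1, Asic, Atp4, Atp12a or Fxyd. Also taken were symbols that start with Atp1 and a or b, with Clic, Ano or Best and a digit, and Lrrc8a to Lrrc8e. The rule uses gene names only, but it was set with earlier results of these data known. The RNA came from small-intestinal organoids of ChgA-GFP reporter mice, in which green fluorescent protein marks cells that use the chromogranin A gene. Organoids are gut epithelium grown from crypts in Matrigel, here with epidermal growth factor, noggin and R-spondin conditioned medium. Both groups come from the same reporter strain: the GFP+ cells collected by fluorescence sorting, and the remaining GFP- cells of the epithelium. There was 1 library per group, so the differences below are not tested and describe these 2 libraries. The age of the mice, and whether several animals were pooled, are not stated in the labels.

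Water follows salt across the gut wall. The sodium pump, an alpha and a beta subunit modulated by small FXYD proteins, keeps cell sodium low. Chloride enters the crypt cell from the blood side and leaves into the lumen through *Cftr*, a channel opened by cyclic AMP, while aquaporins let water cross membranes. Several CLC proteins work inside the cell instead, where they exchange chloride for protons in endosomes, lysosomes and secretory granules.

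Levels are given as FPKM (fragments per kilobase of a transcript after scaling for library size), which is per length, so levels can be set side by side between genes of a library. A difference is log2((FPKM + 1) in GFP+ / (FPKM + 1) in GFP-), and a gene counts as 4-fold higher or lower when it is at least 2 or at most -2 on that scale. Where a pair of values names no library, values joined by "and" give GFP- first and values joined by "against" give GFP+ first. A gene was compared when it reached 1 FPKM in at least 1 library. All 76 genes had an estimate with status OK in both libraries, each on a row of its own. Their deposited lower bounds were all 0, so the bounds of the 2 libraries overlapped for each of the 76. Over all 23793 rows, the lower bound was above 0 on 1 row in GFP- and 0 rows in GFP+. The overlap is thus not particular to these genes.

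Cell markers differed between the fractions, most clearly those of enterochromaffin and Paneth cells. All 5 enterochromaffin markers with an estimate were 4-fold higher in GFP+ (summed 4841 against 112 FPKM in GFP-), while *Chga* and *Chgb* had no estimate there. Of the other lists, 7 of 7 Paneth (669 against 10783 FPKM), 2 of 6 goblet (1354 against 3165 FPKM), 1 of 6 tuft (7.84 against 20.9 FPKM), 2 of 8 enterocyte (3335 against 8202 FPKM) and 2 of 5 stem cell markers (346 against 1373 FPKM) were 4-fold lower. Over all genes compared, 7.09% were higher and 4.59% lower by the same rule. Under both other scalings described below, 6 Paneth, 2 goblet, 0 tuft, 0 enterocyte and 1 stem cell marker were 4-fold lower. As deposited, 2 goblet, 1 tuft and 3 enterocyte markers had a higher value in GFP+. Of 6 markers of stroma, blood and endothelium (253 against 5.72 FPKM), 2 were 4-fold higher in GFP+: *Vim* at 237 against 4.90 FPKM and *Pecam1* at 10.4 against 0.187 FPKM. *Col1a1* was at 1.56 against 0.0106 FPKM, *Col3a1* at 1.61 against 0.00593 FPKM and *Cd68* at 2.71 against 0.595 FPKM. The blood cell marker *Ptprc* was at 0.0224 FPKM in both libraries. No marker with an estimate was at 0 in GFP+. The part of any of these cells in the values below was not tested.

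Of the 76 genes, 39 reached 1 FPKM. In GFP+, 3 of them were 4-fold higher (*Fxyd6*, *Aqp9* and *Clcn5*) and 1 was 4-fold lower (*Aqp1*). Over all 11868 genes compared, 7.09% were higher and 4.59% lower by the same rule, so 3 and 1 of 39 are shares near that background. The median difference was 0.18 over the 39 genes and -0.12 over all genes compared. A difference was above 0 for 22 of the 39, against 46.2% of all genes. In bulk RNA, fewer cells of a type and less RNA per cell cannot be told apart. Of the 39, 9 reached 1 FPKM in a single library, which fixes the sign of their difference. The other 37 genes stayed below 1 FPKM in both libraries, 12 of them at 0 in both.

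How the libraries are scaled matters here. Among the 5563 genes with 10 FPKM or more in each library, the median log2 ratio of GFP+ to GFP- was -0.50. Setting it to 0 moved the median of all genes from -0.12 to 0.35, and giving both libraries the same total moved it to 0.46. Of all genes past the rule, 60.7% were higher as deposited, 87.7% with the median at 0 and 91.6% with the same total. Under these scalings 6 and 7 of the transport genes were 4-fold higher, against 10.8% and 11.8% of all genes, and none was 4-fold lower, against 1.51% and 1.09%. *Clcn3*, *Clcn6* and *Asic2* were added under both, *Fxyd5* under the same total, and *Aqp1* was lost under both. With a pseudocount of 0.1 in place of 1, 10 of the 39 were higher and 2 lower, beside 1524 and 809 of the 11868 genes compared. Among the genes that this added were *Aqp7*, *Asic1*, *Asic2*, *Clcn6*, *Fxyd5* and *Lrrc8c* as higher, and the row listed as *Clca3* as lower. Ratios between genes of a library and shares of a family do not depend on this choice.

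**Figure D1:**
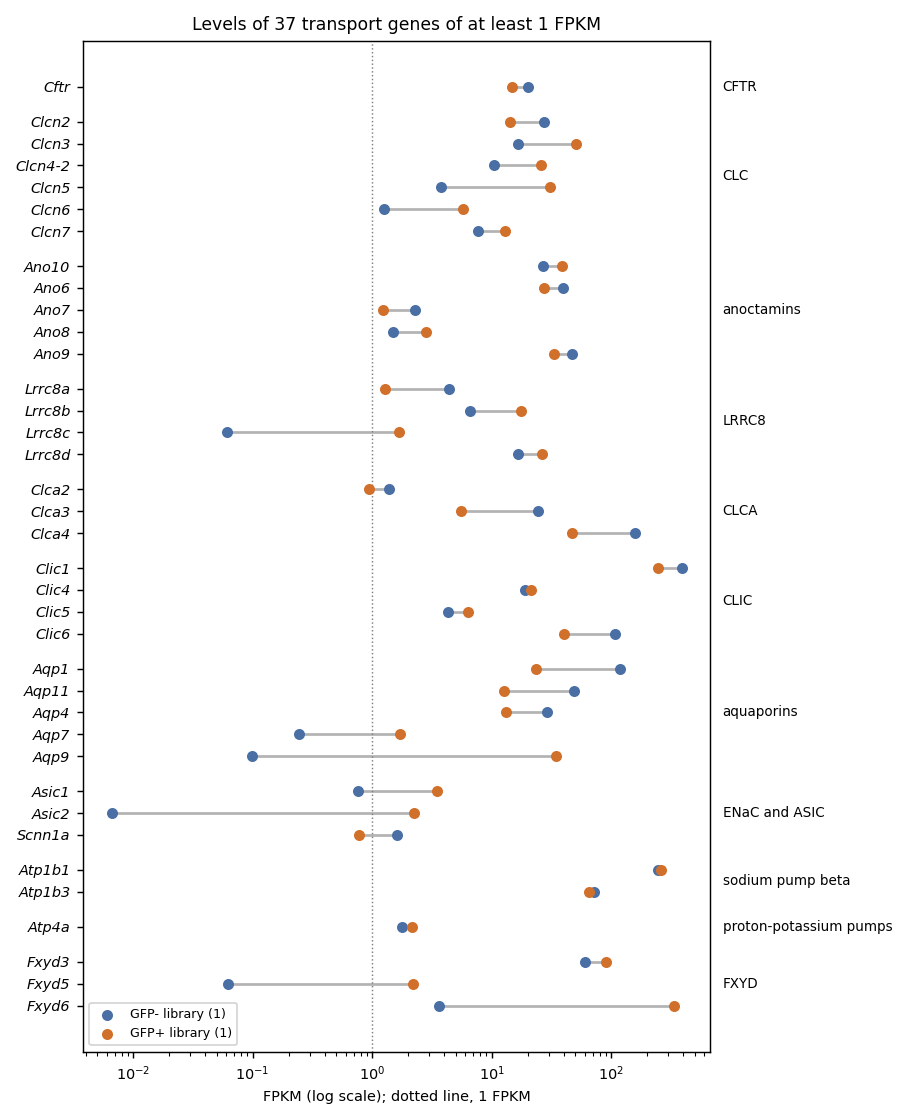
FPKM (log axis) of 37 of the 39 genes of at least 1 FPKM in the GFP- library (blue) and the GFP+ library (orange), 1 library each, joined by a line and grouped by family. Among genes above 10 FPKM in the higher library, the widest gaps are those of *Fxyd6* (3.59 and 336 FPKM) and *Aqp9* (0.0991 and 34.7 FPKM).

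The regulators of the sodium pump held the largest difference. *Fxyd6*, known as a pump modulator of the nervous system (chr9:45370185-45396159, mm10, plus strand, protein-coding), had 3.59 FPKM in the GFP- library (upper bound 10.4) and 336 FPKM in the GFP+ library (upper bound 764). The ratio was 93.6 and the difference 6.20, the 18th largest of the 11868 genes, next to *Tph1*, the enzyme of serotonin synthesis, at 6.20 and rank 17. By level it was the 118th most abundant gene of the GFP+ library and the 8668th of GFP-. *Fxyd3*, a regulator of epithelia, had 60.6 FPKM in the GFP- library and 89.7 FPKM in the GFP+ library, a difference of 0.56. Its listed locus is merged with that of *Lgi4*. *Fxyd5* (dysadherin), which also affects cell adhesion, was at 0.0623 and 2.19 FPKM. The remaining members were near or at 0: *Fxyd2* at 0.0536 and 0 FPKM, *Fxyd7* at 0 and 0.0765 FPKM, and *Fxyd1* and *Fxyd4* at 0 in both. The leading regulator thus differed between the libraries. *Fxyd3* made up 94.2% of the summed FPKM of the family in GFP- and 21.0% in GFP+, and *Fxyd6* 5.58% and 78.5%.

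The start of *Fxyd6* and of the other 3 genes past the rule is shown because these genes carry the differences. Each sequence runs 5' to 3' on the gene's strand, from 250 bases before to 50 bases after the start site (RefSeq, GRCm38.p6), and each start site lies at the 5' end of the listed locus. Capitals mark exact matches on either strand to 5 motifs. The motif of the TATA box was searched with the letters TATAAA, and the GC box with GGGCGG. A form of the E-box was searched as CAGATG, the forkhead site as TGTTTAC, and the last motif was CCAAT. None of these motifs contains another. The *Fxyd6* window is chr9:45369935-45370234.
Fxyd6: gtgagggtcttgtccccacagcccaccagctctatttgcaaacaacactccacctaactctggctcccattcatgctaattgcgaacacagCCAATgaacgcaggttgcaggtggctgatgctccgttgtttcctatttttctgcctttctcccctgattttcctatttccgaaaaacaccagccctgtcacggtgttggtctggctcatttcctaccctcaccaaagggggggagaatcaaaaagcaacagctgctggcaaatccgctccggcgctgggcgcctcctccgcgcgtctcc
It held 1 CCAAT box and no other of the 5 motifs. A CCAAT box is found in 37.4% of the 32851 promoter windows of this length, so the match is common. A match describes the letters only and shows no binding.

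The beta subunits of the sodium pump, which the pump needs to reach the plasma membrane, had similar values in both libraries as deposited. *Atp1b1*, the main beta subunit, was at 248 and 260 FPKM, and ranked 415th and 191st by level. Its differences were 0.063, 0.56 and 0.68 under the 3 scalings. Its listed locus is merged with that of *Nme7* and runs past the annotated gene. *Atp1b3*, another beta subunit, was at 71.8 and 65.7 FPKM, a difference of -0.13 that was above 0 under both other scalings. *Atp1b1* was at 3.46 times *Atp1b3* in GFP- and 3.95 times in GFP+. *Atp1b2* was at 0.0409 and 0.204 FPKM and *Atp1b4* at 0.00392 and 0.00784 FPKM.

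The related proton-potassium pumps were low. *Atp4a*, the catalytic subunit of the gastric acid pump, was at 1.78 and 2.14 FPKM, while its partner *Atp4b* was at 0 in both libraries and *Atp12a* at 0.0555 and 0.0341 FPKM.

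Of the 11 aquaporins, 5 were compared. *Aqp9* was 4-fold higher in GFP+ under all 3 scalings, *Aqp1* was 4-fold lower as deposited but under neither other scaling, and the other 3 lay between. *Aqp9*, which conducts glycerol and urea as well as water (chr9:71110659-71163289, minus strand, protein-coding), had 0.0991 FPKM in the GFP- library (upper bound 0.295) and 34.7 FPKM in the GFP+ library (upper bound 74.6). Its difference of 5.02 was the 67th largest of all genes. The ratio of 350 rests on about 9.9 to 15.3 fragments in GFP-, as estimated from the steps of low FPKM values, and about 3548 to 5484 in GFP+. *Aqp7*, of the same subfamily, was at 0.244 and 1.72 FPKM. *Aqp3*, also of that subfamily, was at 0.147 and 0.399 FPKM. All 3 had a higher value in GFP+ as deposited, as had 46.2% of all genes compared. *Aqp9* and *Aqp7* reached 1 FPKM in GFP+ alone, which fixes the sign of their difference. *Aqp7* did not pass the rule as deposited, and *Aqp3* was below the level compared.

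*Aqp1*, the constitutive water channel (chr6:55336299-55348555, plus strand, protein-coding), had 119 FPKM in the GFP- library (upper bound 281) and 23.6 FPKM in the GFP+ library (upper bound 56.4), a ratio of 5.02 in favour of GFP-. Its difference was -2.28, the 292nd lowest of all genes, and became -1.80 and -1.68 under the other scalings. *Aqp11*, an aquaporin of the endoplasmic reticulum, was at 48.5 and 12.6 FPKM. *Aqp4*, a water channel of basolateral membranes, was at 28.9 and 13.1 FPKM, with differences below 0 under all 3 scalings. *Aqp8* was at 0.556 and 0.103 FPKM. *Aqp2*, *Aqp5*, *Aqp6* and *Aqp12* were at most at 0.0192 FPKM. In GFP- *Aqp1* held 60.2% of the summed aquaporin FPKM and *Aqp9* 0.0503%. In GFP+ *Aqp9* held 40.3% and *Aqp1* 27.4%, and the sum over all aquaporins was 86.3 FPKM, against 197 FPKM in GFP-.

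The windows of both genes around their start sites lie at chr9:71163240-71163539 (*Aqp9*, minus strand) and chr6:55336049-55336348 (*Aqp1*, plus strand), with the same motifs in capitals.
Aqp9: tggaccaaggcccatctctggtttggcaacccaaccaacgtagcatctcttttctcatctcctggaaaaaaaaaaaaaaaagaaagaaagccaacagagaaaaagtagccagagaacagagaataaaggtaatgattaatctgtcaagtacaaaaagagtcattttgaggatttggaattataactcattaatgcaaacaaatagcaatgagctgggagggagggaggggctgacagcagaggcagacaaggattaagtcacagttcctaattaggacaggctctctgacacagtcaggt
Aqp1: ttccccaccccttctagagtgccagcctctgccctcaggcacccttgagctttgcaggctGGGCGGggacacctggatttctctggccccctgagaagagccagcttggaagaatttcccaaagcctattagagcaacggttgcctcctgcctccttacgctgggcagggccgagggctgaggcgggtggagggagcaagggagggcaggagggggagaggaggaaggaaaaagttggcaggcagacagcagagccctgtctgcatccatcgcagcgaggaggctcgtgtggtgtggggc
The *Aqp9* window held none of the 5 motifs and 41.3% G and C, and the *Aqp1* window held 1 GC box and 62.7% G and C. The median over all windows was 52.7%, and 35.7% of windows hold a GC box. Absence of a match says only that these letters are not in the window.

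**Figure D2:**
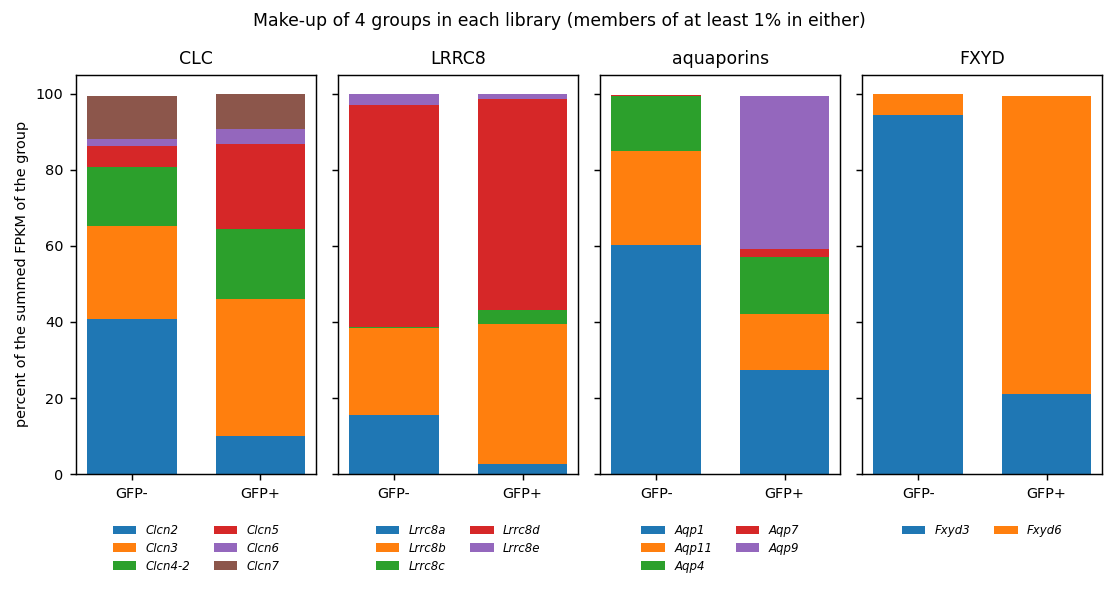
Percent of the summed FPKM of 4 families taken by each gene in the GFP- and the GFP+ library, as stacked bars. Genes under 1% in both libraries are left out. The leading gene changes from *Clcn2* to *Clcn3*, from *Aqp1* to *Aqp9* and from *Fxyd3* to *Fxyd6*, while *Lrrc8d* leads its family in both.

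Of the 6 CLC genes compared, 1 was 4-fold higher in GFP+ (*Clcn5*), 0 were 4-fold lower and 5 lay between. The 5 members of intracellular membranes had values above those of GFP-, and the plasma membrane channel *Clcn2* had a value below. *Clcn5*, a chloride-proton exchanger of endosomes (chrX:7158412-7319358, minus strand, protein-coding), had 3.75 FPKM in the GFP- library (upper bound 8.71) and 30.9 FPKM in the GFP+ library (upper bound 70.5). The ratio was 8.25 and the difference 2.75. Its listed locus also covers 5 microRNA genes. *Clcn3*, an exchanger of endosomes that has also been placed on secretory granules, was at 16.5 and 50.4 FPKM, a difference of 1.55. *Clcn6*, of late endosomes, was at 1.25 and 5.75 FPKM. *Clcn4-2*, which GENCODE names *Clcn4*, was at 10.5 and 25.7 FPKM. *Clcn7*, the exchanger of lysosomes, was at 7.72 and 12.9 FPKM, the smallest difference of the 5 at 0.67. All 5 were above 0 under each of the 3 scalings, where 46.2%, 61% and 64.3% of all genes were. Their median was 1.55 as deposited. They summed to 39.8 FPKM in GFP- and 126 FPKM in GFP+.

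*Clcn2*, a chloride channel of the plasma membrane that opens at negative voltage, had 27.5 FPKM in the GFP- library and 14.2 FPKM in the GFP+ library, with differences of -0.91, -0.43 and -0.32 under the 3 scalings. Its listed locus is merged with that of *Fam131a*. The 5 intracellular members together were at 1.44 times *Clcn2* in GFP- and 8.84 times *Clcn2* in GFP+. The muscle channel *Clcn1* was at 0.388 and 0.0623 FPKM, below the level compared.

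The *Clcn5* window at its start site lies at chrX:7319309-7319608, minus strand.
Clcn5: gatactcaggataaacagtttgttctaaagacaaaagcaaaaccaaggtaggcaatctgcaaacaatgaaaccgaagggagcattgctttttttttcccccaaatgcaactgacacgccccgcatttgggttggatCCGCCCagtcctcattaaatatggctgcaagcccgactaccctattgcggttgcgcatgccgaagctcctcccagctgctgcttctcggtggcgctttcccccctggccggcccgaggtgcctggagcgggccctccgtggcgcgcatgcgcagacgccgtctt
It held 1 GC box, on the opposite strand, and 56% G and C. Of the 56 transport genes with a window in the RefSeq table, 29 held a GC box, 17 a CCAAT box, 5 a TATA box, 5 the E-box form and 1 the forkhead site. Over all windows the GC box is in 35.7%, the CCAAT box in 37.4% and the TATA box in 13.6%. The E-box form is in 17.2% and the forkhead site in 3.65%. The counts take 1 window per gene and the shares take all 32851 windows, so the sets are not alike.

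**Figure D3:**
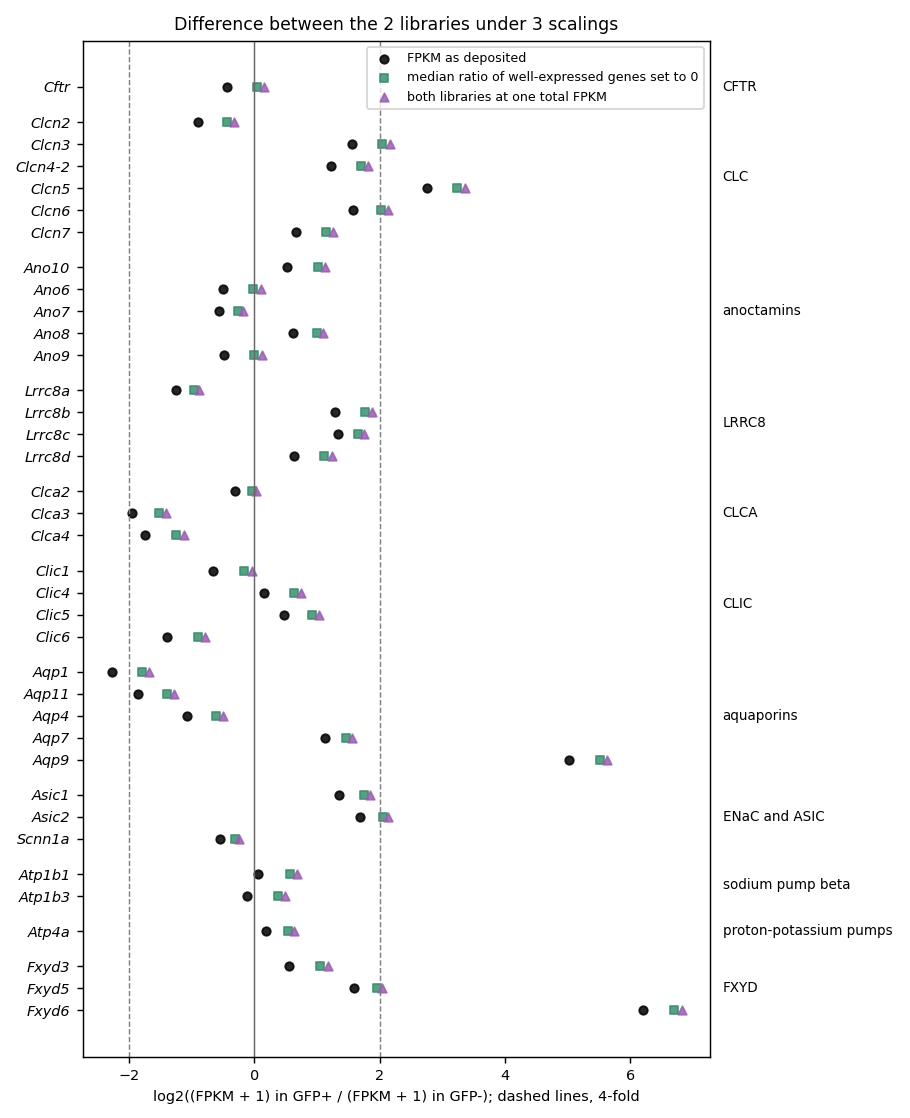
Difference between the libraries, log2((FPKM + 1) in GFP+ / (FPKM + 1) in GFP-), for 37 of the 39 genes under 3 scalings of the same values (black, as deposited; green, median ratio of well-expressed genes at 0; purple, equal totals). Dashed lines mark 4-fold. *Fxyd6*, *Aqp9* and *Clcn5* lie past the upper line under all 3, and *Aqp1* passes the lower line only as deposited.

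*Cftr*, the main route of chloride secretion (chromosome 6, 18170687 to 18322769), had 20.2 FPKM in the GFP- library (upper bound 43.4) and 14.7 FPKM in the GFP+ library (upper bound 31.5). Its difference of -0.44 was 0.035 and 0.15 under the other scalings, so no direction can be given.

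The anoctamins include calcium-activated chloride channels and lipid scramblases. *Ano1*, the calcium-activated chloride channel of secretory epithelia, was at 0.937 and 0.581 FPKM, below the level compared. The leading members were *Ano9* at 46.9 and 33.1 FPKM, *Ano6*, a calcium-activated scramblase, at 39.3 and 27.4 FPKM, and *Ano10* at 26.6 and 38.6 FPKM. *Ano10* and *Ano8* (1.51 and 2.83 FPKM) were above 0 under all 3 scalings, and *Ano8* is listed on a locus merged with that of *Dda1*. *Ano7*, at 2.30 and 1.23 FPKM, was below 0 under all 3, whereas *Ano6* and *Ano9* turned above 0 with equal totals. None of the 5 passed the rule. *Ano2* was at 0 in both libraries and *Ano3*, *Ano4* and *Ano5* were at most at 0.0667 FPKM. Of the bestrophins, another family of calcium-activated channels, *Best2* and *Best3* were at 0 in both libraries and *Best1* was at 0 and 0.00866 FPKM.

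The LRRC8 proteins form the anion channel that opens when cells swell, and *Lrrc8a* is its obligatory subunit. *Lrrc8a* had 4.43 FPKM in the GFP- library and 1.27 FPKM in the GFP+ library, a difference of -1.26 that stayed below 0 under the other scalings (-0.96 and -0.88). The 3 partner subunits compared had a higher value in GFP+ as deposited, beside 46.2% of all genes compared. Among them, *Lrrc8c* reached 1 FPKM in GFP+ alone, which fixes the sign of its difference. *Lrrc8b* was at 6.56 and 17.5 FPKM, *Lrrc8d* at 16.6 and 26.2 FPKM, and *Lrrc8c* at 0.0614 and 1.66 FPKM. These 3 genes lie in 1 region of chromosome 5, with gaps of 33.28 and 91.02 kb between them. The other partner, *Lrrc8e*, was at 0.870 and 0.692 FPKM, below the level compared. Its difference of -0.14 was 0.081 and 0.14 under the other scalings, so no direction can be given. *Lrrc8a* thus made up 15.5% of the family's FPKM in GFP- and 2.68% in GFP+. None of these differences passed the rule under the 3 scalings, but that of *Lrrc8c* was 3.45 with a pseudocount of 0.1.

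The CLCA genes encode secreted or membrane-bound regulators of chloride channels, and their symbols have been reassigned. The row listed as *Clca3* lies on the gene that GENCODE M21 names *Clca1*, a product of goblet cells, and the row listed as *Clca4* lies on *Clca3b*. Listed *Clca4* (chromosome 3, 144822624 to 144849302) had 158 FPKM in the GFP- library and 46.7 FPKM in the GFP+ library, a difference of -1.74. Listed *Clca3* (chromosome 3, 145004537 to 145032776) was at 24.3 and 5.52 FPKM, a difference of -1.96. Both stayed below 0 under the other scalings, the former at -1.25 and -1.13 and the latter at -1.52 and -1.41. The goblet markers beside them ranged from *Spink4*, with 139 FPKM in GFP+ and 1535 in GFP-, to *Muc2* at 3.98 against 2.91 FPKM, and their part in the CLCA values was not tested. Listed *Clca2*, which is *Clca3a2* in GENCODE, was at 1.39 and 0.932 FPKM, a difference of -0.31 that was 0.025 with equal totals. The rows listed as *Clca1*, *Clca5* and *Clca6* were at most at 0.707 FPKM. CLCA genes are close copies of each other in 1 region of chromosome 3, and how reads shared by copies were assigned is not given in the sources used here, so single values are uncertain.

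The CLIC proteins are mostly soluble and can insert into membranes. *Clic1* was at 387 and 245 FPKM. It ranked 219th and 209th by level in the 2 libraries. *Clic6*, a member found in secretory epithelia, was at 108 and 40.5 FPKM, a difference of -1.40 that stayed below 0 under the other scalings. *Clic4* was at 19.2 and 21.4 FPKM, *Clic5* at 4.29 and 6.36 FPKM and *Clic3* at 0.178 and 0.680 FPKM.

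The epithelial sodium channel, which absorbs sodium in the distal colon, was low in both libraries. Its alpha subunit *Scnn1a* had 1.61 FPKM in the GFP- library and 0.778 FPKM in the GFP+ library, and the beta and gamma subunits *Scnn1b* and *Scnn1g* were at 0 in both. Of the acid-sensing channels, which are opened by protons and are known from sensory neurons, *Asic1* was at 0.759 and 3.46 FPKM and *Asic2* at 0.00662 and 2.23 FPKM. The *Asic2* value in GFP- stands for about 1 to 1.3 fragments and that in GFP+ for about 359 to 457, and its listed locus holds 2 further genes. Their differences of 1.34 and 1.68 did not pass the rule as deposited. *Asic3* and *Asic5* were at most at 0.170 FPKM and *Asic4* was at 0 in both libraries.

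With a gap of at most 100 kb, 27 of the 76 genes fell into 10 groups of neighbours. Levels differed widely within some of these groups and were near 0 throughout in others. *Fxyd2* lies 3.55 kb from *Fxyd6* and was at 0 FPKM in GFP+, where *Fxyd6* was at 336 FPKM. On chromosome 7, *Fxyd3*, at 89.7 FPKM in GFP+, stands 4.28 kb from *Fxyd1*, at 0 in both libraries. *Scnn1g* and *Scnn1b*, also neighbours, were at 0 in both libraries. *Asic1* lies 65.24 kb from *Aqp6*, and the 3 aquaporins beside it (*Aqp2*, *Aqp5* and *Aqp6*) were at most at 0.0123 FPKM.

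The other genes of intestinal ion and water transport were taken as a list of 43. Of the 38 that reached 1 FPKM, 5 were 4-fold higher and 3 were 4-fold lower, beside 7.09% and 4.59% of all genes, and the median difference was -0.15, near that of all genes (-0.12). With the median ratio at 0, and also with equal totals, 8 were higher, beside 10.8% and 11.8% of all genes, and 2 lower, beside 1.51% and 1.09%. *Ttyh1*, of a family linked to anion channels, had 56.9 FPKM in GFP+ and 1.00 in GFP-. *Sgk1*, a kinase that raises sodium channel and sodium pump activity, was at 72.1 against 1.88 FPKM, while the sodium channel subunits themselves were at the low values above. *Itpr3*, a receptor that releases stored calcium, was at 122 against 9.23 FPKM on a row joined with a microRNA gene. *Ostm1*, the partner subunit that *Clcn7* needs, was at 40.4 against 5.37 FPKM, a larger difference (2.70) than that of *Clcn7* (0.67). *Slc12a7*, a potassium-chloride cotransporter, was at 96.0 against 18.5 FPKM.

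Lower in GFP+ were *Guca2a*, which encodes the secretory hormone guanylin, at 26.5 FPKM (270 in GFP-), *Kcne3* at 19.6 against 154 FPKM and *Kcnn4* at 26.1 against 151 FPKM. The last 2 belong to potassium channels that sustain chloride secretion. *Kcnn4* missed the rule narrowly with the median ratio at 0 (-1.999) and also missed it with equal totals (-1.88). *Kcnq1*, the pore that *Kcne3* modifies, was at 163 against 229 FPKM, a difference of -0.48 that was 0.016 and 0.14 under the other scalings. *Slc12a2*, the cotransporter that loads crypt cells with chloride, was at 24.2 against 48.4 FPKM, and *Gucy2c*, the guanylin receptor, was at 185 against 83.1 FPKM.

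**Figure D4:**
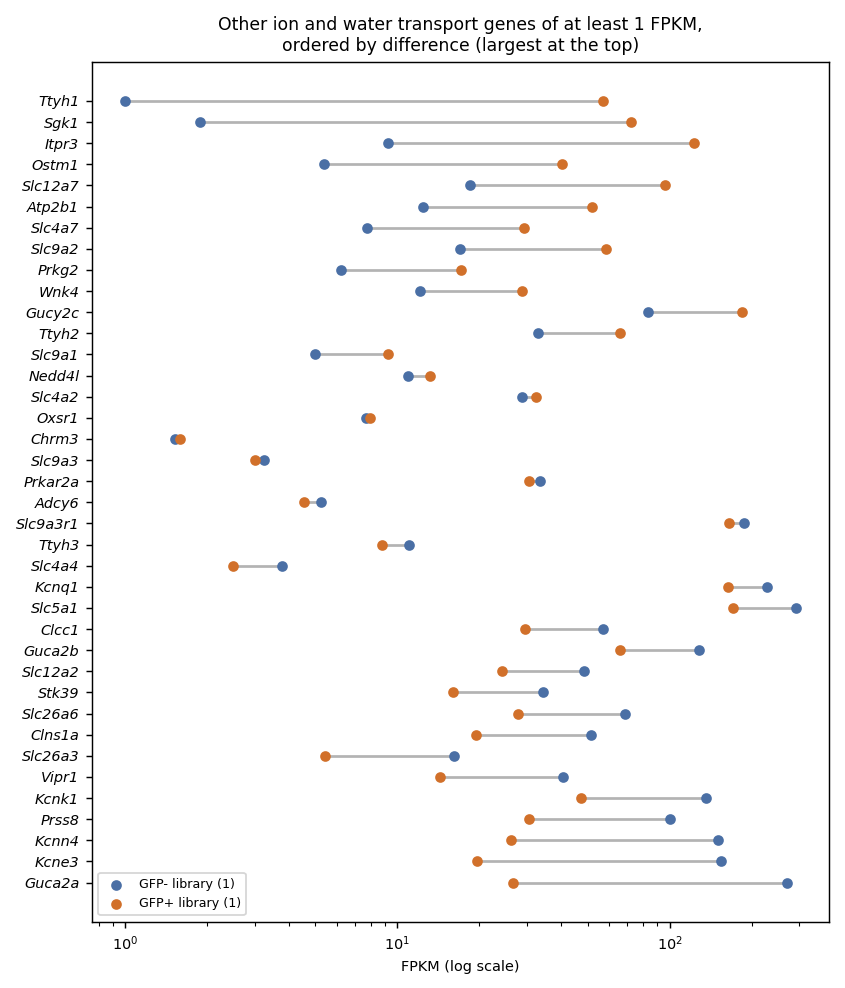
FPKM (log axis) of the 38 further transport genes of at least 1 FPKM in the GFP- library (blue) and the GFP+ library (orange), 1 library each, ordered by difference. *Ttyh1* and *Sgk1* stand at the top, with GFP+ at 56.9 and 72.1 FPKM, and *Guca2a* at the bottom, with GFP+ at 26.5 and GFP- at 270 FPKM.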

How the data were processed

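Polyadenylated RNA of 1 GFP- and 1 GFP+ sorted fraction was amplified with the SMARTer Ultra Low Input RNA kit, per the labels' protocols. The deposited values are FPKM with bounds and a status, per the file headers. The submitters' processing notes name the mm10 build and the tools FastQC, TopHat2 0.7, Cufflinks and Cuffdiff. Annotation, library scaling, use of strand and treatment of shared reads were not stated there or in the labels.

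FPKM was summed per symbol (23532 symbols). The 5 rows that Cuffdiff left without an estimate in GFP+ (status HIDATA, listed at 0) were left out, also from the totals. *Chga* and *Chgb* were among them. Their 0 stands for a missing estimate and not for a measured level, and the totals lack these genes. Rows marked as failed, 5 in GFP- and 8 in GFP+, none of them a member, were kept at their listed values. Values were compared with a pseudocount of 1, a minimum of 1 FPKM in the higher library and a size rule of 2 (log2), in Python 3.11.15 with pandas 2.3.3. The rule was run on copied GFP- values with large changes set in advance and no noise. That run checks the code only and cannot show how often the rule errs between real libraries. With 1 library per group no test was run. Some members, 2 of them above 1 FPKM, enter the counts over all members but are not reported here by name. The named genes are the other members of at least 1 FPKM and, of the other transport genes, mainly those with the largest differences. *Slc12a2*, *Kcnq1* and *Gucy2c* were added for their roles after their values were seen. The members and lists were chosen with earlier results of these data known. Listed loci were shifted to count from 1 and matched to GENCODE M21 (same assembly) by position. Of the 76 member rows, 11 have a locus shared with another row.

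The files give no depth. Low FPKM of 40 and 18 single-transcript genes longer than 3000 bases fell within 5% of a lowest step, taken as 1 fragment, which gives about 58.4 and 59.7 fragments per FPKM and kilobase in GFP- and GFP+. A 2 kb transcript listed at 0 then allows up to 0.0257 and 0.0251 FPKM (3 fragments). The step was chosen from the values, fragment numbers used the shortest and longest coding transcript, and amplified fragments are not independent molecules, so these figures cover counting error only.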

Additional observations from a re-analysis of the deposited data

How the results depend on the processing

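No paired analysis was possible because each group has 1 library. *Fxyd6*, *Aqp9* and *Clcn5* passed the rule under every scaling, pseudocount and filter tried. The main setting gave 3 higher and 1 lower, beside 7.09% and 4.59% of all genes. With a pseudocount of 0.1, 10 genes were higher and 2 lower, beside 1524 and 809 of the 11868 genes compared. With the median ratio at 0 or equal totals, 6 or 7 were higher, beside 10.8% and 11.8% of all genes. Under these scalings 0 were lower, beside 1.51% and 1.09%. The other transport list had 8 higher under both scalings in place of 5, beside the same 10.8% and 11.8%. Below, values are log2 differences or their medians, and single genes are those compared as deposited. With the median ratio at 0, the sign turned for *Cftr* (0.035), *Atp1b3* (0.37) and the medians of CLIC (0.24) and the pump's beta subunits (0.47). With equal totals it turned for *Cftr* (0.15), *Atp1b3* (0.49), *Ano6* (0.097), *Ano9* (0.12), *Clca2* (0.025) and the medians of CLIC (0.75 with *Clic3*, which then passes the minimum, and 0.36 over the same 4 genes), anoctamins (0.12) and the beta subunits (0.58). Without a filter the medians of CLIC (0.15), anoctamins (0.0029) and the beta subunits (0.035) were above 0. Genes below 1 FPKM then enter, for CLIC *Clic3* alone. The FXYD median of 1.59 passed 2 with equal totals (2.04), a pseudocount of 0.1 (3.82) and a minimum of 5 FPKM (3.38, over fewer genes), but was 0.11 without a filter and 0.53 with a pseudocount of 5. The joint median of epithelial and acid-sensing sodium channels, 1.34, is the value of *Asic1*, while *Scnn1a* was at -0.55. It was 2.05 with a pseudocount of 0.1, 0.53 with one of 5 and 0 without a filter. All 3 genes compared in that group reached 1 FPKM in a single library. With rows of a single symbol listed once, the values of the named members and the shares of the leading members were as reported, while the row of *Itpr3* dropped out and 4 of the other transport list were higher in place of 5. Without replicates the spread between cultures is unknown.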
